A study of Mus musculus with 12 samples.

Results

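Insulin signalling and glucose uptake were followed through 9 genes in the visceral white fat of FVB/N mice: Insr, Irs1, Irs2, Grb14, Pik3r1, Akt2, Foxo1, Slc2a4 and Slc2a1. They were chosen by name from textbook roles, with earlier results of these data known. All 9 were found among the 50559 gene symbols of the count tables and passed the filter on low counts, as 9 of 16550 genes tested. High-fat diet lowered Pik3r1, a regulatory subunit of phosphoinositide 3-kinase, in both genotypes, and no other member passed the threshold in any comparison of edgeR's quasi-likelihood test. Irs2, an adaptor of the insulin receptor, stood higher in every transgenic library than in every wild-type library of the same diet, but this did not pass (adjusted p = 0.0637 on control diet). The glucose transporter genes Slc2a4 and Slc2a1 did not pass in any comparison with all 12 libraries.

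The 12 libraries fell into 4 groups of 3 that crossed genotype with diet. Transgenic mice, with the genotype alphaMHC tTA x alphaMHC TGFb, carried a TGF-b1 transgene together with the tTA driver and were fed a high-fat diet or control chow. Wild-type mice, which were littermate controls with the genotype alphaMHC tTA, carried the driver alone and received the same 2 diets. The alphaMHC promoter acts in heart muscle, so the transgene is a cardiac one and fat is a distant tissue in this model. High-fat diet took 60% of its energy from fat (5.21 kcal/g) and control chow 17% (3.1 kcal/g). Mice were 8 to 10 weeks old when the treatment was given, for 2 or 6 weeks, and the duration is not given library by library. Nor is it stated that the 3 libraries of a group are from different mice, so p-values measure only how far these libraries spread, and that spread may be technical.

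Insulin binds its receptor, which phosphorylates the adaptors IRS1 and IRS2, and these recruit phosphoinositide 3-kinase through its regulatory subunit. The kinase makes a membrane lipid that activates AKT2, and AKT2 in turn sends vesicles with the glucose transporter GLUT4 to the surface of the fat cell and holds the transcription factor FOXO1 out of the nucleus. GRB14 binds the active receptor and blocks its kinase. In adipose tissue this chain drives glucose uptake and lipid storage, and its response to insulin is weakened in obesity. Most of these steps act through phosphorylation and membrane traffic, which RNA levels do not measure.

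Gene counts per library ran from 20.1 to 21.3 M, and the biological coefficient of variation was 20.1%. Adipocyte markers marked the tissue as labelled, with all 7 of the list measured and summed levels of 26020 to 34916 CPM (gene counts relative to the library total, per M) in each library. Some libraries held transcripts of other tissues. Skeletal and cardiac muscle markers summed to 727 CPM in transgenic control replicate 3, to 493 CPM in wild-type high-fat replicate 3 and to no more than 81.5 CPM in the others. Epithelial markers summed to 221 CPM in transgenic control replicate 2 and 32.6 CPM in wild-type control replicate 1, but to 8.09 CPM or less elsewhere. Liver markers stood at 285 CPM in wild-type high-fat replicate 2 and at most 60.2 CPM elsewhere. Schwann cell markers reached 516 CPM in wild-type control replicate 1, against 220 to 364 CPM elsewhere. In bulk tissue, fewer cells of a type and less RNA per cell cannot be told apart.

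Per length of exon, Slc2a4 and Akt2 were the most abundant members in every group and Grb14 the least abundant. On the RPKM scale, Slc2a4 averaged 79.1 ± 5.98 and Akt2 64.2 ± 3.41 in transgenic high-fat tissue (SD, n = 3 each). The same 2 genes averaged 105 ± 40.3 and 60.6 ± 6.20 RPKM in wild-type control tissue, where their ranges of 1 SD overlapped. Irs2, Foxo1, Pik3r1, Irs1 and Insr followed at 20.5 ± 1.31, 13.0 ± 0.688, 10.0 ± 1.27, 7.74 ± 1.40 and 7.28 ± 0.548 RPKM in transgenic high-fat tissue, and Irs1 did not differ beyond the spread from Pik3r1 before it or Insr after it. In wild-type control tissue Pik3r1 took the place after Akt2 at 22.5 ± 2.13 RPKM, before Irs2 at 13.8 ± 3.49 and Foxo1 at 13.7 ± 0.829 RPKM, which did not differ beyond their spread. Slc2a1 and Grb14 were the 2 lowest in every group, with means of 3.90 to 5.15 RPKM and 0.839 to 1.30 RPKM. The members also differed in how far they ranged over the 12 libraries. The highest library exceeded the lowest by a factor of 1.23 for Foxo1, 1.26 for Akt2 and 1.42 for Insr, but of 2.74 for Pik3r1 and 3.44 for Irs1.

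**Figure D1:**
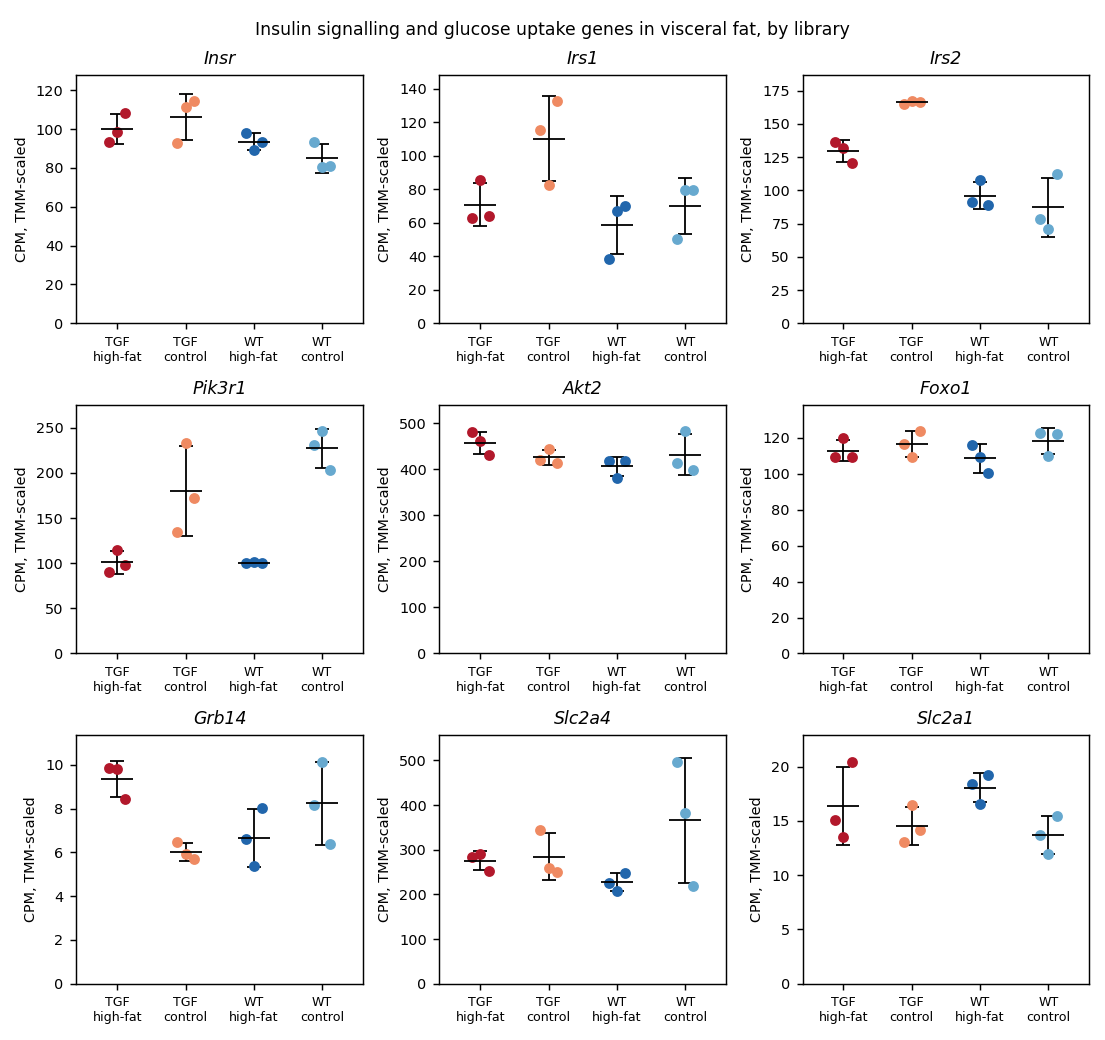
Levels of the 9 genes in each library, in CPM scaled by TMM factors, with 1 panel per gene, each with its own vertical axis from 0. Points are single libraries, horizontal bars are group means and whiskers are 1 SD (n = 3). Pik3r1 lies at 89.8 to 115 CPM in the 6 high-fat libraries and at 134 to 246 CPM in the 6 control-diet libraries.

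High-fat diet was first compared with control diet within each genotype. In transgenic tissue 1 of 9 members was lowered (Pik3r1) and none raised, where edgeR called 8.73% of all genes tested, 3.34% lower and 5.39% higher. Transgenic high-fat libraries did not overlap transgenic control libraries for 3 members, with Pik3r1 and Irs2 below and Grb14 above, against 27.8% of all genes without overlap. In wild-type tissue, again 1 of 9 members was lowered (Pik3r1) and none raised, where 1.14% of all genes were called, 0.453% lower and 0.683% higher. There, 2 members did not overlap between the diets, Pik3r1 below and Slc2a1 above, against 24.9% of all genes. Averaged over the genotypes, 1 member of 9 was called (Pik3r1, lower), where 17.4% of all genes were called, 7.98% lower and 9.43% higher. The median log2 change of the 9 genes was -0.05 in transgenic and -0.12 in wild-type tissue, against -0.02 and -0.01 over all genes tested.

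Transgenic tissue was then compared with wild-type tissue on each diet. On high-fat diet edgeR called 0 of 9 members and 0% of all genes, while 2 members had an unadjusted p under 0.05 (6.73% of all genes did). DESeq2 called 0 members and 0.0546% of all genes there, and limma-voom 0 members and 0% of all genes. Transgenic libraries lay above wild-type ones without overlap for 4 members on that diet, Irs2, Akt2, Slc2a4 and Grb14, against 14% of all genes without overlap, with 7.52% of all genes higher. Without TMM factors the libraries of Akt2, Slc2a4 and Grb14 overlapped there. Those of Irs2 then stayed apart by little, with a lowest transgenic level of 116.5 CPM and a highest wild-type level of 115.3 CPM. On control diet edgeR called 0 of 9 members and 0.0363% of all genes, while 4 members had an unadjusted p under 0.05 (11% of all genes did). DESeq2 and limma-voom each called 1 member on control diet, Irs2, and 1.59% and 0.0483% of all genes. Irs1 and Irs2 lay above wild type without overlap on control diet, where 14.1% of all genes did not overlap and 6.5% lay higher. Without TMM factors the control-diet groups overlapped for Irs1 and not for Irs2. The transgene effect averaged over the diets had 0 members called and 0% of all genes, with 3 members at an unadjusted p under 0.05 (12.3% of all genes). Here too Irs2 was the 1 member called by DESeq2 and by limma-voom, which called 1.4% and 0.0121% of all genes. The interaction of genotype and diet, that is how far the diet difference of transgenic tissue exceeds that of wild type, had 0 members and 0% of all genes called. There 2 members had an unadjusted p under 0.05, Irs2 and Grb14 (5.61% of all genes did), and DESeq2 and limma-voom called 0 members, with 0.164% and 0% of all genes. Each pair of diet and transgene comparisons shares libraries, so these counts are not independent of each other.

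**Figure D2:**
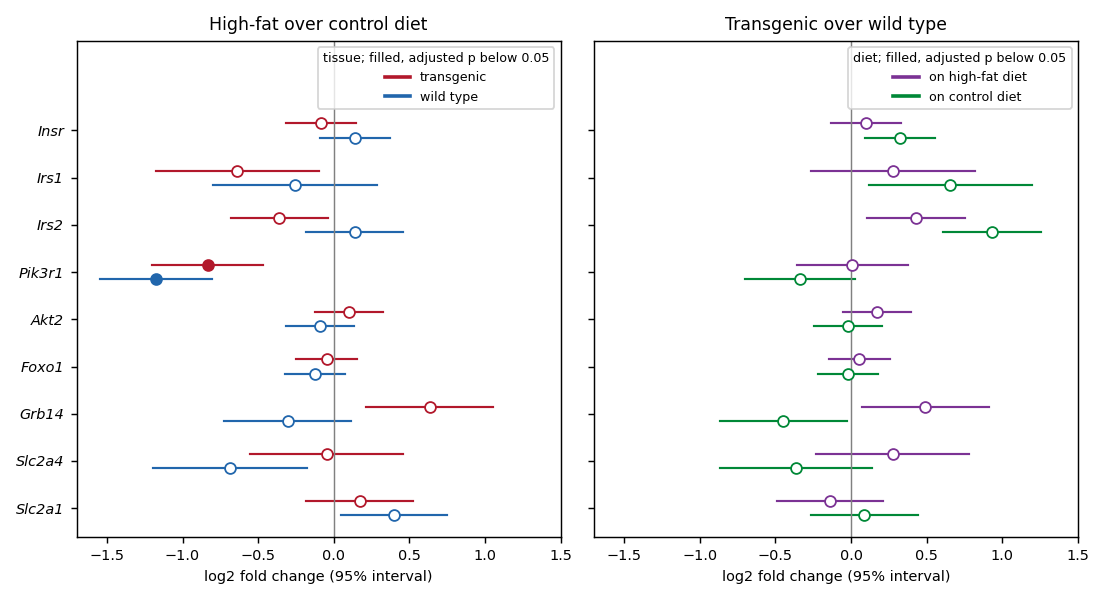
Log2 fold changes of the 9 genes with 95% intervals from edgeR, for high-fat over control diet (left) and transgenic over wild type (right). Filled points passed an adjusted p of 0.05 over all 16550 genes tested and open points did not. The 2 filled points are those of Pik3r1, at -0.83 in transgenic and -1.18 in wild-type tissue.

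Insr, which encodes the insulin receptor, lies at chromosome 8, 3150922 to 3279649 (GRCm38.p6, minus strand). Its level was 93.4, 98.6 and 108 CPM in transgenic high-fat libraries and 92.6, 112 and 114 CPM in transgenic control libraries. In wild type it was 97.8, 89.2 and 93.5 CPM on high-fat diet and 93.5, 80.3 and 80.9 CPM on control diet. The groups overlapped in each of the 4 comparisons, and transgenic control stood highest on average. The receptor gene did not pass for diet in either genotype (log2 -0.09, SE 0.11, adjusted p = 0.660 in transgenic, and 0.14, SE 0.11, adjusted p = 0.523 in wild type). Transgenic over wild type gave 0.10 on high-fat diet (adjusted p = 0.881) and 0.32 on control diet (SE 0.11, adjusted p = 0.288), where the ratio was 1.25 with a 95% interval of 1.07 to 1.47.

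Grb14, the adaptor that inhibits the receptor's kinase, was the least abundant member, with 113 to 206 counts per library. Its levels were 9.87, 9.82 and 8.42 CPM in transgenic high-fat libraries, against 6.49, 5.91 and 5.69 CPM in transgenic control libraries. In wild type the groups overlapped, with 6.61, 5.36 and 8.02 CPM on high-fat diet and 8.18, 10.1 and 6.38 CPM on control diet. Every transgenic high-fat library thus stood above every transgenic control library, while in wild type the mean was lower on high-fat diet. The diet difference was 0.64 in transgenic tissue (SE 0.19, adjusted p = 0.0617) and -0.31 in wild type (SE 0.19, adjusted p = 0.431), and neither passed. The interaction was 0.94 (SE 0.27, unadjusted p = 0.00465, adjusted p = 0.744) and did not pass over all genes tested. For transgenic over wild type, Grb14 gave 0.49 on high-fat diet (adjusted p = 0.714) and -0.45 on control diet (adjusted p = 0.419). Grb14 passed for diet in transgenic tissue with DESeq2 (0.64, adjusted p = 0.0255), which called 13.4% of all genes there. It also passed without wild-type control replicate 3 (0.64, adjusted p = 0.0439), where 1505 of all genes were called, against 1445 with all libraries. Counting error alone gives a coefficient of variation of 7.19% at the mean count of the transgenic high-fat libraries and 9.0% at that of the transgenic control libraries, against 8.81% and 6.90% measured. The authors' deposited table for transgenic tissue gives Grb14 a log2 change of 0.64 with an adjusted p of 0.0337.

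The promoters of the 2 adaptor genes are shown because Irs1 and Irs2 were the members that lay above wild type without overlap in transgenic tissue on control diet. For Irs1 this held only with TMM factors. The 250 bases before each start were taken from RefSeq (GRCm38.p6), 5′ to 3′ on the gene's minus strand. The bases just after either start were not found in an annotated transcript of its gene (GENCODE M21), so these starts are less certain. Capitals mark matches, on either strand, to the GC box GGGCGG, the CCAAT box CCAAT and the E-box CACGTG.
Irs1, chr1:82291440-82291689: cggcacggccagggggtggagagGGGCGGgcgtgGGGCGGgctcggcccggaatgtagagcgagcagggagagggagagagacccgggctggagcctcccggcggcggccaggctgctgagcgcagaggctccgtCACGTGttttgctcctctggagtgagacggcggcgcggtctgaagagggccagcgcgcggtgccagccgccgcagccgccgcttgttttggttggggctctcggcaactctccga
Irs2, chr8:11008930-11009179: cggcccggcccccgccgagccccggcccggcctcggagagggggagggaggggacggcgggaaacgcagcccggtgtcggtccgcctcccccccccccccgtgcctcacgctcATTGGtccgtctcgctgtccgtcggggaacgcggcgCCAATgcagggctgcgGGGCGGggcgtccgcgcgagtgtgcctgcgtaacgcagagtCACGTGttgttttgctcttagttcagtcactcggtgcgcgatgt
Both windows hold a GC box and an E-box, and that of Irs2 holds 2 CCAAT boxes as well. Over 32851 RefSeq windows of the same length, 32.7% held the GC box, 33.8% the CCAAT box and 6.02% the E-box. The FOXO site GTAAACA, which 3.17% of windows held, was not among the letters of either window. A match describes the letters only and no binding was measured.

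Irs1 encodes the adaptor that, with IRS2, links the receptor to phosphoinositide 3-kinase. It stood at 62.9, 85.6 and 64.0 CPM in transgenic high-fat libraries, against 115, 82.7 and 133 CPM in transgenic control libraries. Wild-type libraries held 38.6, 66.8 and 69.9 CPM on high-fat diet and 50.6, 79.7 and 79.4 CPM on control diet. The diets overlapped in both genotypes, and the 3 transgenic control libraries lay above the 3 wild-type control libraries. Without TMM factors these control libraries overlapped, at 78.7 CPM in transgenic replicate 2 and 81.5 CPM in wild-type replicate 3. High-fat over control diet gave -0.64 in transgenic tissue (SE 0.25, adjusted p = 0.128), -0.26 in wild type (SE 0.25, adjusted p = 0.629) and -0.45 averaged over both (SE 0.18, adjusted p = 0.0985). The averaged difference passed without the 2 epithelium-rich control libraries (-0.62, adjusted p = 0.0337). For transgenic over wild type the log2 difference was 0.28 on high-fat diet (SE 0.25, adjusted p = 0.857) and 0.66 on control diet (SE 0.25, adjusted p = 0.357). The authors' deposited table calls Irs1 lower on high-fat diet in transgenic tissue (-0.63, adjusted p = 0.0234). The gene lies at chromosome 1, 82233105 to 82291439 (GRCm38.p6), and 30.9% of its exon bases are shared with Gm9747 on the other strand. Without a stated strand setting for the counting, the value of Irs1 is uncertain.

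Irs2 encodes the second adaptor and lies at chromosome 8, 10984681 to 11008929 (GRCm38.p6, minus strand). Transgenic libraries held 137, 132 and 120.4 CPM on high-fat diet and 165, 167 and 167 CPM on control diet. Wild-type libraries held 91.3, 108 and 89.3 CPM on high-fat diet and 78.2, 71.2 and 112 CPM on control diet. All 6 transgenic libraries were higher than all 6 wild-type libraries, and within transgenic tissue all high-fat libraries were lower than all control libraries. On control diet the transgenic mean of 166 ± 0.927 CPM stood against 87.3 ± 22.1 CPM in wild type (SD, n = 3 each), a ratio of 1.91 with a 95% interval of 1.52 to 2.38. That difference missed the threshold (log2 0.93, SE 0.15, unadjusted p = 3.82e-05, adjusted p = 0.0637), in a comparison where 6 genes of 16550 were called. On high-fat diet it was 0.43 (SE 0.15, adjusted p = 0.714), and averaged over the diets 0.68 (SE 0.10, adjusted p = 0.110).

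Whether Irs2 was called depended on the tool and on a single library. It passed on control diet with DESeq2 (0.93, adjusted p = 6.58e-06), with limma-voom (1.05, adjusted p = 0.0358) and without the filter on low counts (0.93, adjusted p = 0.0335). Wild-type control replicate 3 held 112 CPM, against 78.2 and 71.2 CPM in the other wild-type control libraries. Without it the difference was 1.15 (adjusted p = 0.00383), where 58 of all genes were called, against 6 with all libraries. The averaged transgene effect without wild-type control replicate 3 was 0.79 (adjusted p = 0.00492), where 6 of all genes were called, against 0 with all libraries. Leaving out any other single library gave adjusted p-values up to 0.236 on control diet. The authors' deposited table calls Irs2 on control diet (0.94, SE 0.18, adjusted p = 0.000161) and does not call it on high-fat diet (0.43, adjusted p = 0.0768). High-fat over control diet gave -0.36 in transgenic tissue (SE 0.15, adjusted p = 0.146) and 0.14 in wild type (SE 0.15, adjusted p = 0.670). The transgenic difference passed without wild-type control replicate 3 (-0.36, adjusted p = 0.0415), where 1505 of all genes were called, against 1445 with all libraries. The authors' deposited table calls Irs2 lower on high-fat diet in transgenic tissue (-0.36, adjusted p = 0.0326). The interaction of -0.50 (SE 0.21, unadjusted p = 0.0337, adjusted p = 0.833) did not pass. The transcript 9530052E02Rik shares 2.56% of the exon bases of Irs2 from the other strand and held at most 0.261 CPM in any library.

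Pik3r1 carries the finding of the set, so the 250 bases before its 2 annotated RefSeq starts are shown (GRCm38.p6, 5′ to 3′ on the minus strand). The gene gives the long regulatory subunit p85-alpha and shorter forms from internal starts, and counts per gene do not tell these transcripts apart. Capitals mark matches on either strand to the GC box GGGCGG, the CCAAT box CCAAT and the TATA box TATAAA.
Pik3r1 upstream start, chr13:101768218-101768467: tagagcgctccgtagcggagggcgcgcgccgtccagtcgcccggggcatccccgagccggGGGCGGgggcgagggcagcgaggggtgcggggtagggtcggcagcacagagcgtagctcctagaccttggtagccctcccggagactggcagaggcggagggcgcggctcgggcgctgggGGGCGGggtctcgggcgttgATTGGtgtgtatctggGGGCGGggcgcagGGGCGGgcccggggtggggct
Pik3r1 internal start, chr13:101692631-101692880: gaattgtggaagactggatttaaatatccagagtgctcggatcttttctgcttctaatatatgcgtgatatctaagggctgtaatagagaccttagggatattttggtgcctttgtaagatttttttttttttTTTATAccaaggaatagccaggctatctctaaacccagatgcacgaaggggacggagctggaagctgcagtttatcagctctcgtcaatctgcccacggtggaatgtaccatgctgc
The upstream window holds 4 GC boxes and 1 CCAAT box and is 76.4% G and C. The internal window is 42.4% G and C and holds 1 match to the TATA box letters, on the strand opposite to the gene. Of 32851 windows, 12.4% held such a match on either strand. A match describes the letters only. Windows were found for 7 of the 9 members, with none for Insr and Slc2a4, and no member's window held the FOXO site GTAAACA or the MEF2 site, which 3.2% of all windows held.

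Pik3r1 fell on high-fat diet in both genotypes. Its level was 89.8, 115 and 98.4 CPM in transgenic high-fat libraries, against 134, 233 and 172 CPM in transgenic control libraries. In wild type it was 99.8, 101 and 100.2 CPM on high-fat diet, against 231, 246 and 204 CPM on control diet. All 6 high-fat libraries were lower than all 6 control-diet libraries, the 2 high-fat groups lay close together, and the transgenic control libraries were the most spread. High-fat diet left a ratio of 0.562 in transgenic tissue (95% interval 0.435 to 0.725; log2 -0.83, SE 0.17, adjusted p = 0.0128) and of 0.442 in wild type (0.342 to 0.571; log2 -1.18, SE 0.17, adjusted p = 0.0178). Averaged over the genotypes the change was -1.01 (SE 0.12, adjusted p = 0.000508), and it passed in all 20 alternatives that were run, with log2 values of -1.08 to -0.88. Transgenic over wild type did not pass on high-fat diet (0.01, SE 0.17, adjusted p = 0.997) or on control diet (-0.34, SE 0.17, adjusted p = 0.492).

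The size of the Pik3r1 change was steadier than its call within 1 genotype. In wild type the call was lost without control replicate 1 (-1.16, adjusted p = 0.0679), control replicate 2 (-1.11, adjusted p = 0.0573), high-fat replicate 1 (-1.17, adjusted p = 0.0679), high-fat replicate 2 (-1.19, adjusted p = 0.102) or high-fat replicate 3 (-1.18, adjusted p = 0.0589). Calls over all genes fell as well, to 2, 13, 9, 0 and 17 in that order, against 188 with all libraries. In transgenic tissue the Pik3r1 call was lost without high-fat replicate 3 (-0.80, adjusted p = 0.0561), where 543 of all genes were called against 1445 with all libraries. The Pik3r1 change there was -0.59 without control replicate 2, the library with 233 CPM. The authors' deposited tables call Pik3r1 in both genotypes (-0.83, adjusted p = 0.00119 in transgenic, and -1.17, adjusted p = 1.07e-20 in wild type). Pik3r1 lies at chromosome 13, 101680761 to 101768217, with no exon base shared with a gene on the other strand.

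Levels of some cell type markers moved with the diet beside Pik3r1. The marker counts are for diet averaged over the genotypes, where 17.4% of all genes were called. Of 4 mesothelial markers 3 were lowered by diet averaged over the genotypes, with sums of 83.5 to 238 CPM in transgenic high-fat and 427 to 469 CPM in transgenic control libraries, and of 234 to 305 CPM in wild-type high-fat and 399 to 651 CPM in wild-type control libraries. Of 5 macrophage markers 2 were raised, with sums of 340 to 484 CPM in transgenic high-fat and 215 to 316 CPM in transgenic control libraries, and of 328 to 390 CPM in wild-type high-fat and 303 to 334 CPM in wild-type control libraries. Of 6 epithelial markers 3 were lowered, with sums of 2.68 to 4.58 CPM in transgenic high-fat and 5.87 to 221 CPM in transgenic control libraries, and of 3.45 to 5.61 CPM in wild-type high-fat and 4.72 to 32.6 CPM in wild-type control libraries. Of 5 fibroblast markers 1 was raised and 2 were lowered, of 5 erythroid markers 3 were lowered, and of 5 Schwann cell markers 1 was lowered. Of 5 endothelial markers 1 was raised, of 4 liver markers tested 1 was raised, and of 7 muscle markers tested none was called. No mesothelial or macrophage marker stood at 0 in any library. In 7 of the 12 libraries 1 of the 6 epithelial markers was at 0. Without the 2 epithelium-rich libraries the averaged change of Pik3r1 was -0.88 (adjusted p = 0.00168), against -1.01 with all 12 libraries. Of 7 adipocyte markers 1 was raised and none lowered. The part of any of these cell types in the level of Pik3r1 was not tested, and leaving out libraries does not test it.

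Among 10794 other genes with a mean of at least 5 CPM, the 3 whose profile over the 12 libraries was most like that of Pik3r1 were Slc16a1, AI661453 and Sema3b. Slc16a1 encodes the lactate and ketone transporter MCT1, and Sema3b a secreted semaphorin. Their centred log2 levels differed from those of Pik3r1 by a root mean square of 0.22, 0.24 and 0.24, where Pik3r1 itself had an SD of 0.54. Slc16a1 stood at 73.2 to 91.3 CPM in transgenic high-fat and 122 to 151 CPM in transgenic control libraries, and at 90.6 to 101 CPM in wild-type high-fat and 144 to 174 CPM in wild-type control libraries. Sema3b stood at 13.5 to 20.3 CPM in transgenic high-fat and 25.5 to 32.7 CPM in transgenic control libraries, and at 14.98 to 22.0 CPM in wild-type high-fat and 33.0 to 36.7 CPM in wild-type control libraries. These genes were chosen for their likeness, so their lower level on high-fat diet is a description.

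**Figure D3:**
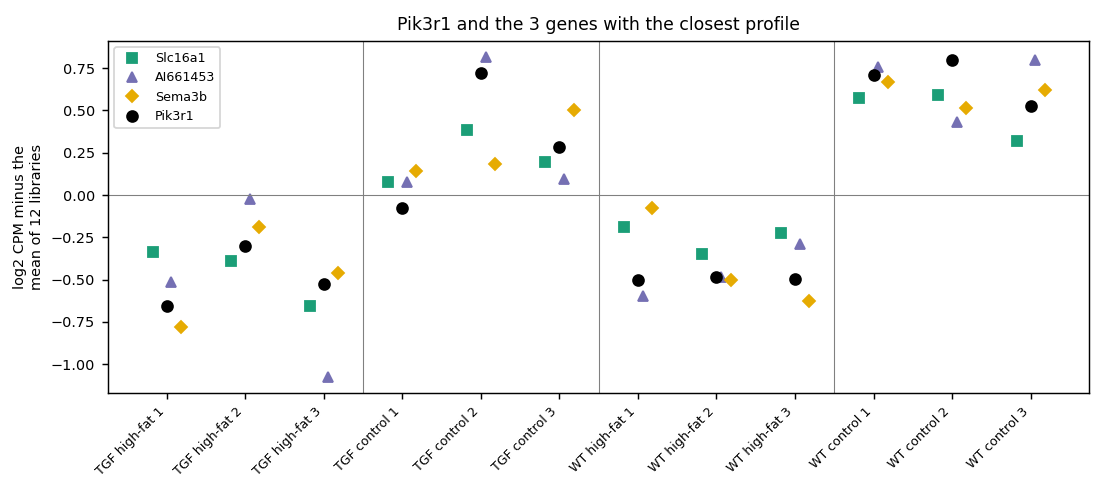
Centred log2 CPM of Pik3r1 and of the 3 genes with the closest profile in each of the 12 libraries, with vertical lines between the groups. Points are single libraries and replicates have no order. In all 6 high-fat libraries all 4 genes lie below their mean over the libraries, and in all 3 wild-type control libraries all 4 lie above it.

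Akt2 encodes the AKT kinase that carries the insulin signal in fat and muscle. It stood at 480.3, 461 and 432 CPM in transgenic high-fat libraries and 421, 444 and 414 CPM in transgenic control libraries. Wild-type libraries held 418, 382 and 418 CPM on high-fat diet and 414, 482 and 399 CPM on control diet. The diets overlapped in both genotypes, and on high-fat diet the transgenic libraries lay above the wild-type ones. Without TMM factors the libraries of that diet overlapped, with a lowest transgenic level of 418 CPM and a highest wild-type level of 430 CPM. Its diet ratios were 1.07 in transgenic (95% interval 0.919 to 1.26) and 0.940 in wild type (0.805 to 1.10), and its transgene ratios 1.13 on high-fat (0.964 to 1.317) and 0.986 on control diet (0.844 to 1.15). A processed copy, Akt2-ps on chromosome 11, was counted apart at 17.9 to 25.2 CPM, and the split of reads between near-identical copies makes the value of Akt2 less certain.

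Foxo1 encodes the transcription factor that AKT2 keeps out of the nucleus. It varied least among the members, with 109, 119.8 and 109.6 CPM in transgenic high-fat and 117, 109 and 124 CPM in transgenic control libraries. In wild type it stood at 116, 109.6 and 100.3 CPM on high-fat diet and 123, 110.1 and 122 CPM on control diet. All groups overlapped, and none of the comparisons passed. The diet ratio was 0.968 in transgenic (95% interval 0.842 to 1.11) and 0.918 in wild-type tissue (0.799 to 1.05), and the transgene ratio 1.04 on high-fat (0.904 to 1.19) and 0.985 on control diet (0.857 to 1.13). The gene shares 7.78% of its exon bases with Gm20402 on the other strand, so its value carries that uncertainty.

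Slc2a4 encodes GLUT4, the transporter that insulin brings to the surface of fat and muscle cells. Transgenic libraries held 283, 291 and 252 CPM on high-fat diet and 344, 258 and 251 CPM on control diet. Wild-type libraries held 225, 209 and 248 CPM on high-fat diet and 497, 382 and 218 CPM on control diet. The wild-type control group was the most spread, and its replicate 3 lay among the high-fat libraries. High-fat over control diet gave -0.05 in transgenic tissue (SE 0.23, adjusted p = 0.925) and -0.69 in wild type (SE 0.23, adjusted p = 0.153), and -0.37 averaged over both. Without wild-type control replicate 3 the wild-type change was -0.95 (adjusted p = 0.0187) and the averaged one -0.50 (adjusted p = 0.0132), and both then passed. That fit called 269 of all genes for diet in wild type, against 188 with all libraries, and 2523 averaged, against 2882. Over the 12 fits without 1 library the wild-type change ran from -0.95 to -0.40 (adjusted p up to 0.427). The averaged one ran from -0.50 to -0.22 (adjusted p up to 0.342), and no other of these fits passed. For transgenic over wild type, Slc2a4 gave 0.28 on high-fat diet (adjusted p = 0.853) and -0.36 on control diet (adjusted p = 0.602). The 2 libraries rich in muscle markers, transgenic control replicate 3 and wild-type high-fat replicate 3, held 251 and 248 CPM of Slc2a4. Both lay within the range of the other libraries, as the lowest of the transgenic control group and the highest of the wild-type high-fat group. The part of muscle in the level of Slc2a4 was not tested.

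Slc2a1 encodes GLUT1, which carries glucose without insulin. Its levels were 15.1, 13.6 and 20.5 CPM in transgenic high-fat libraries and 13.0, 16.5 and 14.1 CPM in transgenic control libraries. In wild type they were 18.4, 16.6 and 19.2 CPM on high-fat diet, against 13.7, 11.9 and 15.4 CPM on control diet. Wild-type high-fat libraries all stood above wild-type control libraries, while the diets overlapped in transgenic tissue. The diet difference was 0.17 in transgenic (SE 0.16, adjusted p = 0.548) and 0.40 in wild-type tissue (SE 0.16, adjusted p = 0.219), and 0.29 averaged over both (adjusted p = 0.105), and none passed. Transgenic over wild type gave -0.14 on high-fat diet (adjusted p = 0.890) and 0.09 on control diet (adjusted p = 0.894).

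The rest of the pathway was counted in 5 lists of 111 genes, of which 108 were tested. Averaged over the genotypes, high-fat diet raised 7 and lowered 12 of them, 17.6% of them, a share close to the 17.4% of all genes. In transgenic tissue 5 were raised and 3 lowered (7.41%, against 8.73% of all genes), and in wild type 0 were raised and 1 was lowered (0.926%, against 1.14%), where DESeq2 called 11 (10.2%, against 5.29% of all genes) and limma-voom 8 (7.41%, against 4.22%). For transgenic over wild type edgeR called 0 of the 108 on high-fat diet, on control diet and averaged, with 13, 11 and 14 at an unadjusted p under 0.05 (12%, 10.2% and 13%, against 6.73%, 11% and 12.3% of all genes). DESeq2 called 5 for the averaged transgene effect (4.63%, against 1.4% of all genes) and 0 on either diet, and limma-voom called 0 in all 3. The interaction had 0 called by edgeR, DESeq2 and limma-voom, and 6 at an unadjusted p under 0.05 by edgeR (5.56%, against 5.61% of all genes). Single genes of these lists are given by their averaged diet effect unless another comparison is named. Counts of each list are for that effect too and stand beside the same 17.4% of all genes.

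**Figure D4:**
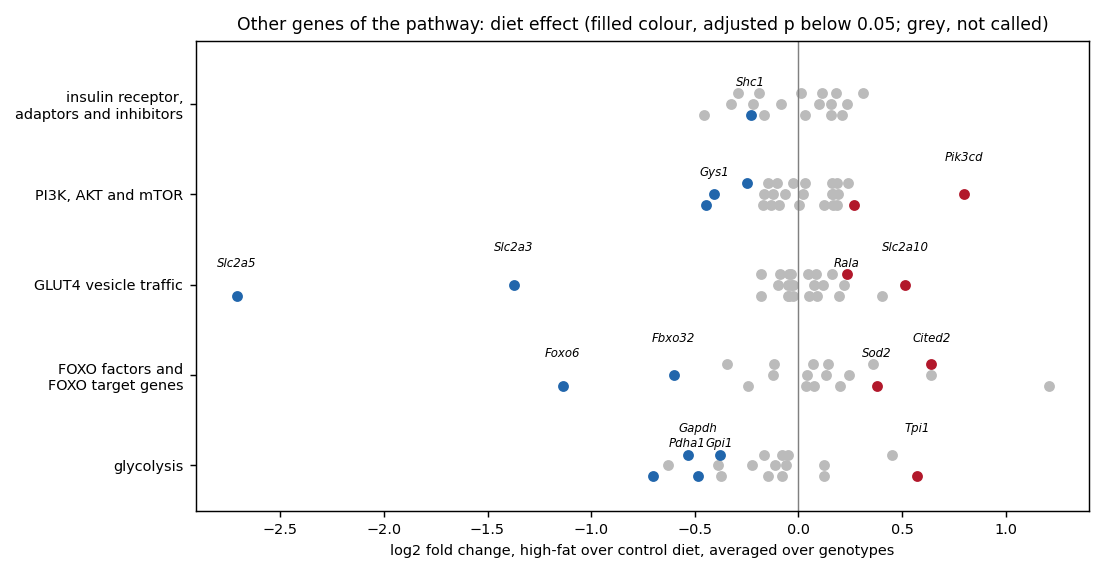
Log2 fold changes of the 108 other pathway genes for high-fat over control diet, averaged over the genotypes, with 1 row per list. Red and blue points passed an adjusted p of 0.05 upwards and downwards, with names for those the text describes, and grey points did not pass. The 7 raised and 12 lowered genes are spread over the 5 lists.

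Of 26 genes of phosphoinositide 3-kinase, AKT and mTOR, high-fat diet raised 2 and lowered 3. Pik3cd, a catalytic subunit found mostly in leukocytes, stood at 14.1 ± 1.86 CPM in transgenic high-fat against 7.35 ± 1.48 CPM in transgenic control tissue, and at 13.0 ± 1.58 CPM in wild-type high-fat against 8.22 ± 0.678 CPM in wild-type control tissue (SD, n = 3 each). It rose by 0.80 on the log2 scale (SE 0.12, adjusted p = 0.00129), as did 2 of 5 macrophage markers, whose part in it was not tested. Gys1, the glycogen synthase of muscle and fat, was lowered (-0.41, SE 0.09, adjusted p = 0.00826), with 6.47% of its exon bases shared with Ruvbl2 on the other strand. Pik3cd and Gys1 both passed in each of the 20 alternatives run.

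Of 18 receptor-level adaptors and inhibitors, 1 was lowered and none raised. This was Shc1, an adaptor that leads to the Ras pathway (-0.23, SE 0.06, adjusted p = 0.0243), which passed in 7 of 12 fits without 1 library (adjusted p up to 0.0673). In the list of GLUT4 vesicle traffic and other glucose transporters, 2 of 26 were raised and 2 lowered. Slc2a3, the transporter GLUT3, stood at 4.82 ± 2.47 CPM in transgenic high-fat against 13.1 ± 0.553 CPM in transgenic control tissue, and at 4.54 ± 0.746 CPM in wild-type high-fat against 11.3 ± 3.47 CPM in wild-type control tissue. It fell by 1.37 (SE 0.22, adjusted p = 0.00192) and passed in each of the 20 alternatives. The fructose transporter gene Slc2a5 was lowered by edgeR (-2.71, SE 0.75, adjusted p = 0.0284), but its 3 wild-type control libraries ranged from 0.786 to 90.2 CPM and it passed in 2 of 12 fits without 1 library (adjusted p up to 0.0741). Slc2a10 rose by 0.51 (adjusted p = 0.0384; 4 of 12 such fits, adjusted p up to 0.0975), and Rala, a small GTPase of vesicle delivery, by 0.23 (adjusted p = 0.0250; 10 of 12, adjusted p up to 0.0585).

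Of 19 FOXO factors and FOXO target genes, 2 were raised and 2 lowered. Cited2, a transcriptional co-regulator, rose by 0.64 (SE 0.13, adjusted p = 0.00772), and Fbxo32, the ubiquitin ligase atrogin-1, fell by 0.60 (SE 0.13, adjusted p = 0.00796). Both passed in each of the 20 alternatives. Foxo6 fell by 1.14 (SE 0.30, adjusted p = 0.0224) at a low level of 0.472 to 3.33 CPM, and was lost without transgenic control replicate 1 (adjusted p = 0.0512), transgenic high-fat replicate 3 (adjusted p = 0.0578) or wild-type high-fat replicate 2 (adjusted p = 0.0580). Sod2, the mitochondrial superoxide dismutase, rose by 0.38 (adjusted p = 0.0328; 5 of 12 fits without 1 library, adjusted p up to 0.0812).

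Of 19 glycolysis genes 1 was raised and 4 lowered, and the number called ran from 1 to 7 over the alternatives. Tpi1, the triosephosphate isomerase, stood at 648 ± 107 CPM in transgenic high-fat against 374 ± 37.3 CPM in transgenic control tissue, and at 541 ± 37.8 CPM in wild-type high-fat against 425 ± 14.9 CPM in wild-type control tissue. It rose by 0.57 (SE 0.09, adjusted p = 0.00220) and passed in each of the 20 alternatives. Gapdh was lowered in wild type (-0.95, SE 0.19, adjusted p = 0.0380), which held in 5 of 12 fits without 1 library (adjusted p up to 0.158), and stood at -0.02 in transgenic tissue (adjusted p = 0.965). Gpi1 (-0.38, adjusted p = 0.0339) and Pdha1 (-0.53, adjusted p = 0.0395) each passed in 3 of 12 such fits, with adjusted p up to 0.0834 and 0.0980. Tpi1 and Gapdh have many processed copies in the genome, and opposite-strand genes cover 11.5% of the exon bases of Gpi1 and 16.1% of those of Pdha1, which leaves these values less certain.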

How the data were processed

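RNA of 12 libraries was compared in 4 groups of 3, taken from the sample titles. The authors deposited raw read counts per gene and library, made with HISAT2 2.2.0, HTSeq 2.0 and the mm10 genome build per the submitters' processing notes. For the annotation and the strand setting, the value is not given in the sources used here. Rows that name no gene, which held 16.8% to 21.0% of the reads, stayed out of library sizes and tests. The authors also deposited tables of their 4 pairwise comparisons, which per the file headers and processing notes come from DESeq2 1.32.0 and hold a mean normalized signal, log2 fold changes and their standard errors, Wald scores and p-values. These are quoted by name only.

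The analysis used edgeR 4.0.16 under R 4.3.3: filterByExpr (minimum count 10, minimum total 15; 16550 genes), TMM factors, 1 mean per group fitted over the 12 libraries (8 residual degrees of freedom), quasi-likelihood tests, and Benjamini-Hochberg adjustment over all genes tested. Calls needed an adjusted p below 0.05. Intervals are 95% from the fit. CPM is relative to the total of gene counts, scaled by TMM factors, and RPKM divides it by the union of exons in GENCODE M21. Likeness used log2 CPM with a prior count of 2, among genes with a mean of at least 5 CPM. The 9 members, the 5 pathway lists, the marker lists and the tests were chosen with earlier results of these data known. Named genes are the members, up to 4 genes of each list with the smallest p among those called, the 3 genes closest in profile to a called member (predicted genes left out), and the markers; Akt2-ps and 9530052E02Rik were added after values were seen. Some genes that this rule names are not reported here. Alternatives were DESeq2 1.42.0, limma-voom (limma 3.58.1), other scaling, no filter, a replicate block, only the 6 libraries compared, and fits without single or doubtful libraries. The tests were tested on simulated data. No 2 libraries agreed within counting noise.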

Additional observations from a re-analysis of the deposited data

How the results depend on the processing

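For 45 results of the members 936 refits were counted, of which 900 kept their direction and side of the threshold, 15 turned direction, 13 newly passed and 8 no longer passed. The 45 are all members in the 4 pairwise comparisons, and averaged and interaction results with an unadjusted p under 0.05. Other averaged and interaction results of the members are left out of these counts. Only the diet results of Pik3r1 were called with all libraries, so most refits that kept their side stayed uncalled. The number of members called for diet in wild type was 1 with all libraries, 0 without both muscle-rich libraries (Pik3r1 -1.18, adjusted p = 0.0537, with 23 of all genes called), and 0 to 2 without single libraries. In transgenic tissue it was 1, with 2 by DESeq2, 0 with only the 6 libraries compared (Pik3r1 -0.83, adjusted p = 0.0527, with 764 of all genes called), and 0 to 3 without single libraries. For the averaged diet effect it was 1, with 2 without both epithelium-rich libraries and 1 to 2 without single libraries. For the transgene on control diet it was 0, with 1 by DESeq2, by limma-voom and without a filter, and for the averaged transgene effect 0, with 1 by DESeq2 and by limma-voom; both ranged from 0 to 1 without single libraries. Among the 45 results signs turned only where the difference was small. Without both epithelium-rich libraries Slc2a1 and Foxo1 gave -0.0179 and 0.0429 for the transgene on control diet. On high-fat diet Pik3r1 gave -0.0764 without TMM factors and -0.00306 with the replicate block, and Foxo1 -0.0295 without TMM factors. Without single libraries the ranges that crossed 0 were -0.14 to 0.00654 for Akt2 on diet in wild type, -0.13 to 0.12 for Slc2a4 and -0.00997 to 0.30 for Slc2a1 on diet in transgenic tissue, -0.0748 to 0.0622, -0.0150 to 0.18 and -0.0749 to 0.0180 for Akt2, Slc2a1 and Foxo1 in the transgene effect on control diet, and -0.0976 to 0.0795 for Pik3r1 in that on high-fat diet. Over all genes the calls ranged from 0 to 871 for diet in wild type, 543 to 2209 in transgenic tissue, 1865 to 3470 averaged, 0 to 262 for the transgene on control diet, 0 to 9 on high-fat diet, 0 to 230 averaged, and 0 to 27 for the interaction. The labels do not say whether replicate numbers pair the libraries. Over 18 same-number pairs the correlation of deviations from group means ran from -0.11 to 0.27, against -0.26 to 0.19 over pairs of other numbers. Of the 12 libraries 4 were closest to their own number. With 3 libraries per group these values cannot decide on pairing. The replicate block changed no call of a member, and lowered the wild-type diet calls over all genes to 99, against 188 without it. For the averaged diet effect the called genes of the lists were 5 for phosphoinositide 3-kinase, AKT and mTOR (3 to 6 over the alternatives), 1 for the receptor list (0 to 2), 4 for GLUT4 traffic (1 to 4), 4 for FOXO (2 to 6) and 5 for glycolysis (1 to 7). The 25 pathway gene results were chosen because they were called with all libraries, so none could newly pass and a turned direction was unlikely. Of their 508 refits, 142 no longer passed and none turned direction. At 20.1 to 21.3 M gene counts per library, counting error was largest for Grb14 (113 to 206 counts), at a coefficient of variation of 7.19% to 9.0%, and exceeded the measured spread of Grb14 and Irs2 in transgenic control and of Pik3r1 in wild-type high-fat libraries.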
